A study of Oryza sativa Japonica Group with 9 samples.

Results

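NAC proteins are plant transcription factors that share a DNA-binding domain named after the genes NAM, ATAF and CUC. Rice carries a large NAC family, and several members are switched on by drought, salt and the hormone abscisic acid (ABA), while others act in leaf ageing, in the seed, at organ boundaries or in the building of secondary cell walls. The NAC genes were taken as all genes whose description in the deposited tables contains the whole word NAC or the phrase No Apical Meristem. This rule found 137 of the 55986 genes. It left out 3 genes of the nascent polypeptide-associated complex, which shares the abbreviation. Gene symbols below come from general knowledge of the rice literature, because the tables list locus names only.

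RNA was sequenced from the shoots of rice seedlings (Oryza sativa ssp japonica, cultivar Zhonghua 11, ZH11) that had 4 leaves. The 3 genotypes were wild-type ZH11, an osbzip23 mutant and an OsbZIP23-overexpression line, each grown normally or droughted until every leaf was rolled. OsbZIP23 is a bZIP transcription factor that acts in ABA signalling, and the series asked how it regulates ABA-related and drought-resistance genes. Each of the 6 combinations of genotype and condition had 1 RNA library, so the 3 genotypes are the only replication of drought. The kind of mutation, the promoter of the transgene, the number of lines and the number of plants in a library are not given in the sources used here.

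The libraries held from 9.48 M reads (mutant drought) to 13.5 M reads (ZH11 drought). Levels are reads per M reads of a library (CPM), with library sizes scaled by edgeR's trimmed mean of M-values (TMM), and stand in the order ZH11, mutant and overexpressor unless said otherwise. OsbZIP23 itself (LOC_Os02g52780) had 32.3, 11.8 and 1319.8 CPM under normal growth and 478, 158 and 456 CPM under drought. The drought library labelled overexpressor was therefore not above ZH11 drought for the overexpressed gene, and the mutant libraries still held its reads. The green leaf markers, 5 genes of carbon fixation and light harvesting, summed to between 21096 and 31969 CPM under normal growth and between 1714 and 2554 CPM under drought. Of these 5 genes, 4 fell and Rubisco activase did not pass the test. The root markers summed to at most 10.0 CPM in any library with Lsi2 at 0, and the shoot meristem markers to at most 0.146 CPM with OSH15 at 0. In whole shoots, fewer cells of a type and less RNA per cell cannot be told apart.

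Of the 137 NAC genes, 18 had no read in any library. Another 58 had reads but missed the minimum for testing, and 61 met it, meaning about 10 reads (0.869 CPM) in at least 3 libraries. The tested share was 44.5% of NAC genes and 38.2% of all genes. Of the tested NAC genes, 3 (LOC_Os02g34970, LOC_Os03g42630 and OMTN5) reached the minimum in no normal library, so they could enter the test only as genes higher under drought. Another 6 that rose, OsNAC10, LOC_Os12g03040, LOC_Os12g03050, LOC_Os05g10620, LOC_Os06g36480 and LOC_Os07g37920, reached it in all 3 drought libraries but in only 1 or 2 normal ones. In the same way LOC_Os01g64310, LOC_Os01g71790 and LOC_Os04g46920, which fell, reached it in all 3 normal libraries but in only 1 or 2 drought ones.

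Summed NAC transcript was higher under drought than under normal growth in every genotype. The levels of all 137 genes added up to 1465, 1512 and 1353 CPM under normal growth. Under drought they added up to 9695, 14722 and 4366 CPM. The normal sums lay close together, and each drought sum was above every normal sum, with the mutant highest and the overexpressor lowest. Scaled by total counts alone, the sums ran from 1517 to 1824 CPM under normal growth and were 8414, 11115 and 4416 CPM under drought, in the same order. OsNAC6 alone made up between 9.72% and 14.4% of the sum under normal growth and between 36.8% and 40.8% under drought. Without OsNAC6 the sums still ran from 1158 to 1365 CPM under normal growth and from 2759.8 to 8722 CPM under drought. On the per-length scale of the deposited FPKM, the most abundant NAC transcript under normal growth was LOC_Os05g35170 in ZH11 (124 FPKM) and the mutant (166 FPKM) but OsNAC6 in the overexpressor (102 FPKM). Under drought OsNAC6, SNAC1 and LOC_Os03g21030 led in that order in each genotype, OsNAC6 with 1575, 2213 and 760.2 FPKM.

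**Figure D1:**
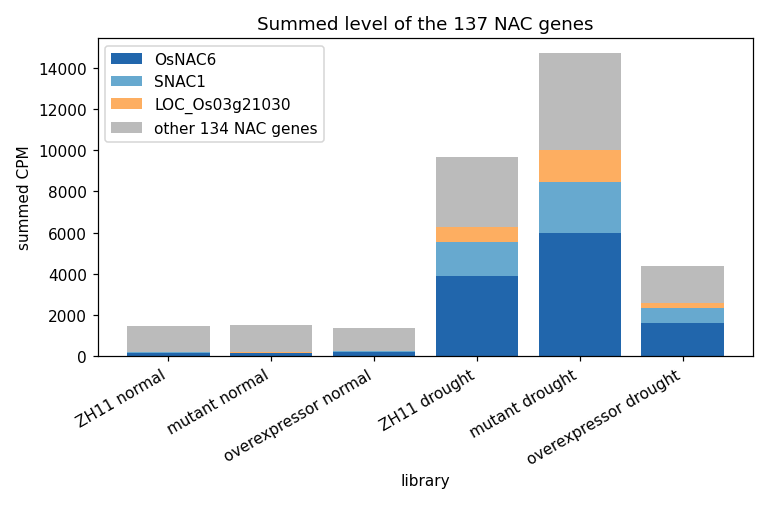
Summed level of the 137 NAC genes in each of the 6 RNA libraries, as stacked bars in TMM-scaled CPM (vertical axis), with OsNAC6, SNAC1 and LOC_Os03g21030 in colour and the other 134 genes in grey. The 3 normal libraries stand between 1353 and 1512 CPM, and the drought libraries at 9695 (ZH11), 14722 (mutant) and 4366 CPM (overexpressor).

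The drought comparison asks which NAC transcripts differ between stressed and unstressed shoots over the 3 genotypes. A gene "rose" or "fell" where edgeR's quasi-likelihood test passed an adjusted p of 0.05 (Benjamini-Hochberg over all 21409 tested genes). Of the 61 tested NAC genes 26 rose (42.6%), where 26.1% of all tested genes rose. A further 8 fell (13.1%), where 27.5% of all tested genes fell, and 27 did not pass. The 34 NAC genes past the threshold thus stood beside a background of 53.6% called. The median log2 fold change was 0.71 over the tested NAC genes and -0.15 over all tested genes. All 3 drought libraries lay above all 3 normal libraries for 30 NAC genes (31.0% of all tested genes) and below them for 8 (34.6% of all tested genes). In the other 23 the groups overlapped. Under total count scaling the medians were 0.32 and -0.54, and with limma on the deposited FPKM 0.25 and -0.45; with no genotype term that of NAC genes was 1.25. With total count scaling 23 NAC genes rose and 10 fell, beside 4027 and 7330 of all genes (5579 and 5896 with TMM). Where 1 library is left out, the genotype term fits the other library of that genotype. The drought estimate then rests on the remaining genotypes only. Leaving out the ZH11 drought library gave 19 NAC genes that rose and 3 that fell, beside 12.1% and 10.2% of all tested genes. Leaving out the ZH11 normal library gave 22 and 2, beside 13.3% and 10.8%.

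The NAC genes that rose did so by between 1.21 and 6.17 on the log2 scale. Their median rise was 3.91, and that of all 5579 genes that rose was 1.94. A rise of at least 16-fold was found for 12 of the 26 (46.2%), against 17.5% of all genes that rose. Tested only through their drought libraries were 3 of the 26 and 756 of all 5579 genes that rose. Among the 12 these were LOC_Os02g34970 and LOC_Os03g42630, whose rises with limma on FPKM were 3.30 and 2.18. The median of 3.91 also takes in OMTN5, tested the same way. The groups overlapped in 1 of the 26, OMTN4, but the 26 were picked by a test on the same libraries.

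**Figure D2:**
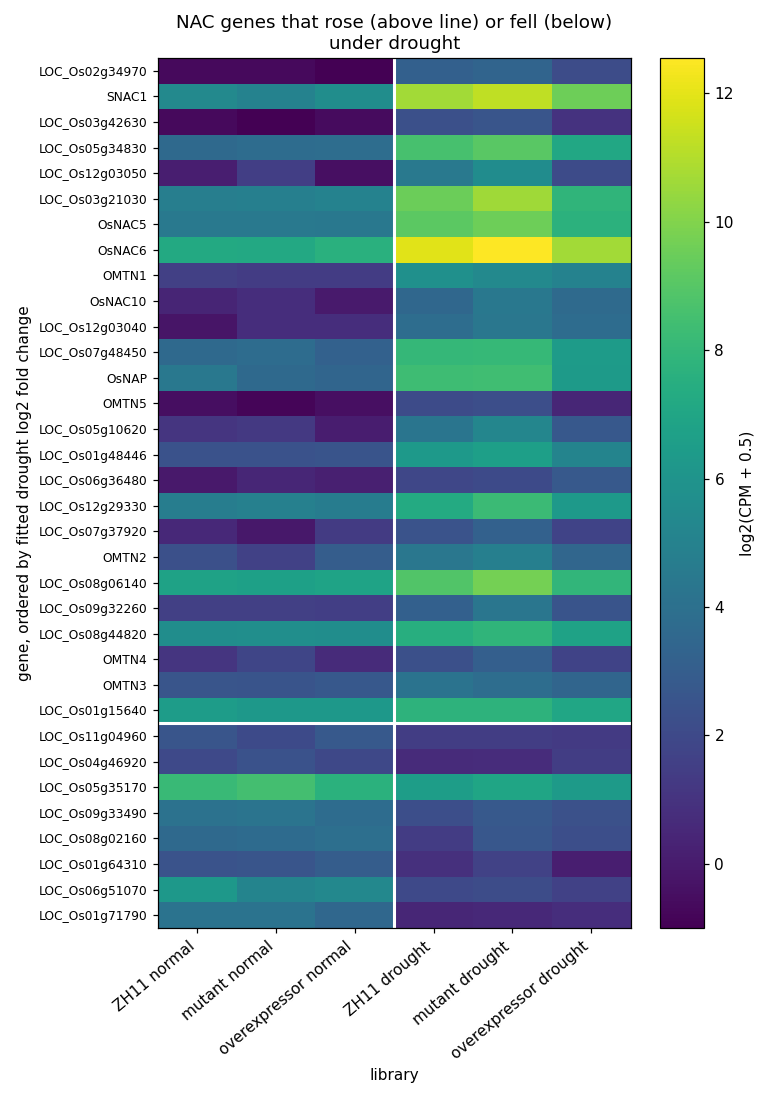
Levels of the 34 NAC genes past the threshold under drought, as log2(CPM + 0.5) in colour, with 1 column per library and genes ordered by fitted log2 fold change. The 26 genes above the horizontal line rose and the 8 below it fell; the vertical line parts normal from drought libraries.

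Among the stress-related NAC genes, 9 were listed and all 9 were tested: 4 rose, 0 fell and 5 did not pass, with a median log2 fold change of 1.48 (26.1% of all tested genes rose and 27.5% fell, with a median of -0.15). SNAC1 (LOC_Os03g60080), which is induced in guard cells and raises drought tolerance when overexpressed, had 40.4, 31.4 and 49.5 CPM under normal growth and 1648, 2475 and 748 CPM under drought. All drought values were far above all normal values, and the fitted log2 fold change was 5.20 (SE 0.61, adjusted p = 0.00152). OsNAC6 (LOC_Os01g66120, also called SNAC2), an activator of tolerance genes, had 148, 147 and 195 CPM under normal growth and 3886, 6000.1 and 1607 CPM under drought. It rose by 4.39 (SE 0.63, adjusted p = 0.00287), and here too the groups did not overlap. Its relative OsNAC5 (LOC_Os11g08210), known as induced by stress and ABA, had 21.5, 21.6 and 21.0 CPM under normal growth and 572, 743 and 210.2 CPM under drought. The normal libraries were nearly equal, and OsNAC5 rose by 4.40 (SE 0.46, adjusted p = 0.00112).

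OsNAC10 (LOC_Os11g03300), which raises drought tolerance when expressed in roots, was scarce at 0.805, 1.22 and 0.495 CPM under normal growth and reached 10.9, 20.9 and 12.3 CPM under drought, a rise of 4.12 (SE 0.34, adjusted p = 0.00069). Every drought value exceeded every normal value. Its level is uncertain in the split of reads, because the start of chromosome 11 has a close copy on chromosome 12. The member of like description there, LOC_Os12g03040, had 0.366, 1.22 and 1.24 CPM under normal growth and 13.7, 20.2 and 13.2 CPM under drought, and also rose by 4.12 (SE 0.42, adjusted p = 0.00109). The remaining 5 stress-related genes did not pass. ONAC045, a gene of drought and salt tolerance, had a log2 fold change of 1.48 (adjusted p = 0.0605), SNAC3, which acts in heat and drought tolerance, 0.69 (adjusted p = 0.104), and OsNAC3 0.50 (adjusted p = 0.203). OsNAC4, which acts in the response to pathogens, had -0.63 (adjusted p = 0.26) and ONAC022, a gene of drought and salt tolerance, -0.86 (adjusted p = 0.106). The drought and normal libraries of ONAC045 and SNAC3 did not overlap, while those of OsNAC3, OsNAC4 and ONAC022 did. Results here turned on the genotypes used and on the method. Without overexpressor drought the log2 fold changes of ONAC045, SNAC3 and OsNAC3 were 1.92, 0.87 and 0.78. Without overexpressor normal, which also takes that genotype out of the drought estimate, they were 1.86, 0.8 and 0.72. That of ONAC022 was -1.32 without mutant drought and -1.38 without mutant normal. With all libraries, ONAC022 fell under total count scaling (adjusted p = 0.0212), with limma (adjusted p = 0.0137) and with no low-count minimum (adjusted p = 0.0392). ONAC045 rose with DESeq2 (adjusted p = 0.0373) and with no low-count minimum (adjusted p = 0.0234).

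Of 3 NAC genes of leaf senescence, 2 were tested. OsNAP (LOC_Os03g21060), which promotes senescence and chlorophyll breakdown, had 20.9, 12.1 and 10.1 CPM under normal growth and 329.7, 338 and 83.5 CPM under drought. It rose by 3.95 (SE 0.41, adjusted p = 0.00112), with ZH11 and mutant drought nearly level and the overexpressor well below both. ONAC106, a factor that delays senescence, was at or under 1.61 CPM in each library, with a log2 fold change of -0.53 (SE 0.63, adjusted p = 0.498). ONAC054, a membrane-bound factor of senescence, had at most 0.591 CPM and was not tested. LOC_Os03g21030, which lies near OsNAP by its locus number, had 27.2, 27.8 and 31.8 CPM under normal growth and 725, 1548 and 237 CPM under drought. It rose by 4.50 (SE 0.66, adjusted p = 0.00299), and its mutant drought level was the highest of the 6. Among 18 pairs of NAC genes with locus numbers at most 100 apart, 3 had both genes tested. In 2 of these both genes rose, OsNAP with LOC_Os03g21030 and LOC_Os12g03040 with LOC_Os12g03050. Of all tested NAC genes 42.6% rose, and neighbouring pairs over all genes were not counted, so these pairs have no background. LOC_Os12g03050 had 0.585, 2.37 and 0.248 CPM under normal growth and 21.8, 47.8 and 3.74 CPM under drought.

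The microRNA miR164 cuts transcripts of a NAC subgroup, in rice named OMTN1 to OMTN6. All 6 were tested, 5 rose and 0 fell, and the median log2 fold change was 1.74, against 26.1% that rose and a median of -0.15 over all tested genes. OMTN5 is among the 5 and had to be high under drought to be tested. OMTN1 (LOC_Os02g36880) had 2.49, 2.17 and 2.15 CPM under normal growth and 56.1, 41.3 and 32.1 CPM under drought, a rise of 4.22 (SE 0.27, adjusted p = 0.000414). OMTN5 (LOC_Os06g23650) was at 0.219, 0.0678 and 0.248 CPM and reached 3.75, 4.33 and 0.886 CPM, a rise of 3.87 (SE 0.77, adjusted p = 0.0082) for a gene with at most 3 reads in a normal library. Both had no overlap between conditions, and the overexpressor was lowest under drought in each. The smaller rises were those of OMTN2 (2.06, adjusted p = 0.026), OMTN4 (1.42, adjusted p = 0.0144) and OMTN3 (1.3, adjusted p = 0.0127). Without the ZH11 normal library, these 3 and OMTN5 were no longer called (adjusted p = 0.102, 0.143, 0.142 and 0.0585 in turn), and under total count scaling OMTN4 and OMTN3 were not (adjusted p = 0.0813 and 0.0608). OMTN6 (LOC_Os08g10080) missed the threshold at a log2 fold change of -1.36 (SE 1.05, adjusted p = 0.307). With the mutant out of the drought estimate, OMTN6 stood at -2.63 (without mutant drought) or -2.69 (without mutant normal). Its levels were 31.7, 6.99 and 47.7 CPM under normal growth and 10.2, 20 and 3.25 CPM under drought, so that its groups overlapped and only the mutant was higher under drought.

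**Figure D3:**
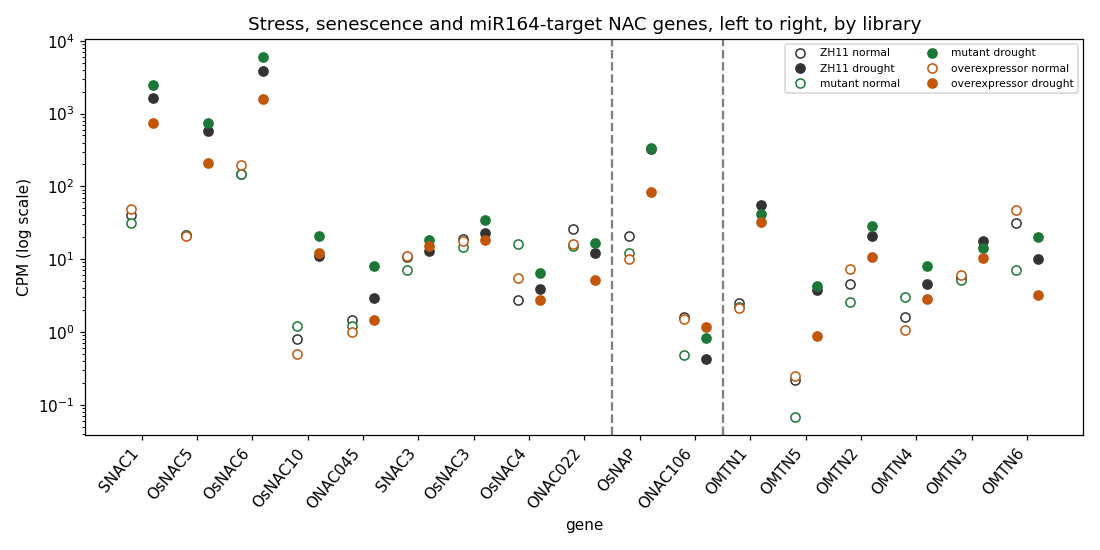
CPM (log axis) of the tested stress-related, senescence and miR164-target NAC genes, from left to right and parted by dashed lines, with open circles for normal and filled circles for drought libraries. SNAC1, OsNAC5, OsNAC6, OsNAC10, OsNAP, OMTN1 and OMTN5 have all filled above all open circles, while OMTN6 has them mixed.

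Seed and cell-wall NAC genes gave no call. Of 5 NAC genes known from the developing seed none reached the minimum in enough libraries to be tested. ONAC020, ONAC026 and ONAC127 had no read, and ONAC129 reached 2.73 CPM in ZH11 drought. ONAC023 (LOC_Os02g12310) was at or under 2.98 CPM in 5 libraries and at 57.4 CPM in the overexpressor drought library. In that library the seed markers summed to 0.689 CPM, all of it from the glutelin gene GluA1, with the 2S albumin at 0. Of 3 regulators of secondary walls 2 were tested. OsNAC29 had a log2 fold change of -0.69 (SE 0.92, adjusted p = 0.552). With the overexpressor out of the drought estimate, OsNAC29 stood at -2.18 (without overexpressor drought) or -2.25 (without overexpressor normal). OsSWN1 (LOC_Os06g04090) had 4.39, 2.99 and 4.21 CPM under normal growth and 2.73, 0 and 31.9 CPM under drought, with a log2 fold change of -0.01 (SE 0.86, adjusted p = 0.995). Both had no read in the mutant drought library and their highest level in the overexpressor drought library. OsNAC31, the third, had at most 1.96 CPM.

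Beyond the listed genes, the descriptions give Arabidopsis NAC names, written here as ANAC with the number. The largest fitted rise among tested NAC genes in the edgeR fit was that of LOC_Os02g34970, one of 6 genes described as vascular or xylem NAC proteins. It had 0.146, 0.136 and 0 CPM under normal growth and 8.52, 9.92 and 3.94 CPM under drought, a rise of 6.17 (SE 0.56, adjusted p = 0.00079). The fold rests on 0 to 2 reads in a normal library, and the gene was tested only through its drought libraries. With limma on log2(FPKM + 0.5) it was 3.30, below SNAC1 (4.78), LOC_Os05g34830 (4.10), LOC_Os03g21030 (4.05) and OsNAC6 (3.95). The other tested gene of that description, LOC_Os04g46920, fell by 1.37 (adjusted p = 0.0426). LOC_Os05g34830 had 12, 13.3 and 13.9 CPM under normal growth and 384, 545 and 138 CPM under drought and rose by 4.57 (SE 0.50, adjusted p = 0.00131). LOC_Os07g48450 had 12.1, 13.2 and 8.67 CPM and then 257, 269.5 and 87.4 CPM and rose by 4.04 (SE 0.33, adjusted p = 0.000679). In both genes the overexpressor was the lowest drought library, still above every normal one. LOC_Os03g42630, also tested only through its drought libraries, rose by 5.01 (SE 0.85, adjusted p = 0.00487) to at most 5.45 CPM, and by 2.18 with limma. LOC_Os12g03050 rose by 4.54 (SE 0.36, adjusted p = 0.000615).

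Description groups with at least 3 tested genes were mixed. Of 17 genes described as ANAC047, 5 were tested, 3 rose and 1 fell. Of 6 described as ANAC087, a regulator of cell death in Arabidopsis roots, 4 were tested, 2 rose and 0 fell. The 4 tested genes of the ANAC035 description gave 1 each way. The 3 tested genes of each of the ANAC001 and ANAC075 descriptions gave 2 that rose and 0 that fell, and those of ANAC083 and ANAC102 gave 1 and 0. Of 22 genes described by the NAC superfamily only, 8 were tested, 4 rose and 0 fell. Over all tested genes 26.1% rose and 27.5% fell. Smaller rises included those of genes abundant already under normal growth. LOC_Os08g06140 went from a normal mean of 110.1 ± 5.87 CPM to a drought mean of 519 ± 309 CPM (SD, n = 3), and LOC_Os01g15640 from 78.4 ± 8.15 to 186 ± 51.8 CPM (SD, n = 3).

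The 8 NAC genes that fell were led by LOC_Os01g71790 and LOC_Os06g51070. LOC_Os01g71790, described as ANAC047, had 17.4, 17.4 and 10.9 CPM under normal growth and 0.852, 0.978 and 1.18 CPM under drought and fell by 3.88 (SE 0.37, adjusted p = 0.000907). LOC_Os06g51070, described as ANAC036, had 75.4, 34.2 and 39.0 CPM and then 3.49, 3.91 and 2.56 CPM and fell by 3.84 (SE 0.34, adjusted p = 0.000752). In both, the highest drought library was well under the lowest normal library. LOC_Os05g35170, described as ANAC103, a factor of the endoplasmic reticulum stress response in Arabidopsis, had 289.5, 362 and 200.2 CPM under normal growth and 92.1, 124 and 82.4 CPM under drought and fell by 1.49 (adjusted p = 0.00444). The other falls were those of LOC_Os01g64310 (log2 fold change -2.09), LOC_Os08g02160 (-1.78), LOC_Os09g33490 (-1.67), LOC_Os04g46920 (-1.37) and LOC_Os11g04960 (-1.23). None of the 8 had overlapping groups, but they were picked by a test on the same libraries. LOC_Os01g71790 and LOC_Os06g51070 passed in all 12 alternative settings. The other 6 were no longer called without the ZH11 drought or without the ZH11 normal library, at adjusted p between 0.0615 and 0.246. LOC_Os04g46920 was also not called with DESeq2 (adjusted p = 0.0579) or without mutant drought or mutant normal (0.131 and 0.139). LOC_Os11g04960 was also not called with DESeq2 (adjusted p = 0.0595) or without overexpressor drought or overexpressor normal (0.0837 and 0.0769).

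Genes reported in the literature as direct targets of rice NAC factors were read beside them. Of 9 such genes 8 were tested and all 8 rose, with a median log2 fold change of 4.06 (26.1% of all tested genes rose, with a median of -0.15). OsSRO1c, a target of SNAC1 in guard cells, had 4.46, 4.89 and 4.29 CPM under normal growth and 2413, 3944 and 528 CPM under drought, a rise of 8.60 (SE 0.79, adjusted p = 0.00082). OsLEA3-1, a late embryogenesis abundant protein and target of OsNAC5, rose by 11.56 (SE 0.72, adjusted p = 0.000414). Of the targets of OsNAP in chlorophyll breakdown, SGR had 499, 770.1 and 172 CPM under drought and rose by 5.09, RCCR1 by 3.78, NYC1 by 2.49 and NYC3 by 1.93. OsPP18, a phosphatase and target of SNAC1, rose by 1.5 (SE 0.23, adjusted p = 0.0034). OsNAS2, a nicotianamine synthase and target of OsNAC6, rose by 4.34 but reached at most 1.36 CPM and was tested only through its drought libraries, and OsNAS1 had too few reads to be tested. Under drought the overexpressor library was the lowest of the 3 for each of the 8 that rose. Of all 5579 genes that rose, 82.3% were not above ZH11 in that library (69.5% under total count scaling). That share leaves the mutant aside, so it is a looser condition than being lowest of the 3.

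The mutant and overexpressor comparisons ask which NAC genes differ with the OsbZIP23 genotype over both conditions. The minimum for testing asks for 3 libraries, and each genotype had 1 library per condition. A gene that reached the minimum in 1 genotype alone therefore could not enter these tests. LOC_Os07g04560, which reached it only in the mutant libraries, was left out in this way. With no low-count minimum LOC_Os07g04560 passed in the mutant comparison (edgeR, adjusted p = 0.000294). In the mutant edgeR called 0 of the 61 NAC genes (0.0140% of all tested genes), and DESeq2 also called 0. At an unadjusted p under 0.05 there were 4, beside 3.64% of all tested genes. In the overexpressor edgeR called 0 of 61 (0.0187% of all tested genes) and DESeq2 0, with 5 at an unadjusted p under 0.05, beside 5.16% of all tested genes. Smallest in p among them was LOC_Os12g03050, at a log2 fold change of 1.42 in the mutant (SE 0.37, adjusted p = 0.987) and -2.21 in the overexpressor (SE 0.45, adjusted p = 0.644). Each comparison uses the same ZH11 libraries. OsNAC4 in the mutant had 1.59 (SE 0.53, adjusted p = 1.00), and OsNAP in the overexpressor -1.47 (SE 0.46, adjusted p = 0.928). The overexpressor fit joins a normal library with a raised OsbZIP23 level and a drought library without it.

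Genotypes were also set side by side within a condition, as ratios of 1 library to 1 library with no test. Medians and 2-fold counts use log2 ratios of CPM + 0.5, for genes that had 10 or more reads in at least 1 of the libraries compared. Ratios of named genes, unless given as log2, are plain ratios of CPM with nothing added. Their intervals are 95% Clopper-Pearson intervals that cover counting error only. Under normal growth the mutant stood at a median of 0.00 from ZH11 over 63 NAC genes, with 3 at least 2-fold higher (3.44% of all genes) and 4 at least 2-fold lower (4.03%). The overexpressor under normal growth, with its raised OsbZIP23 level, stood at -0.09 over 60 NAC genes, with 2 higher (2.36%) and 4 lower (3.85%). Under drought the mutant stood at 0.52 over 69 NAC genes, against -0.02 over all genes, with 14 at least 2-fold higher (5.94%) and 3 lower (6.07%). Of the 69, 85.5% were above ZH11, and of all genes 48.9%. The overexpressor under drought stood at -0.58 over 69 NAC genes, against 0.02 over all genes, with 5 higher (11.2%) and 21 lower (8.51%). Here 29.0% of NAC genes and 51.0% of all genes were above ZH11.

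The same ratios were taken for the 26 NAC genes that rose with drought. In the mutant under drought 24 of them were above ZH11 (63.9% of all genes that rose), with a median of 0.49 against 0.17. In the overexpressor 24 were not above ZH11 (82.3% of all genes that rose), with a median of -1.0 against -0.48. There 13 of the 26 were at least 2-fold below ZH11, beside 1091 of all 5579 genes that rose. In the mutant 3 of the 26 were at least 2-fold above it, beside 372 of the 5579. Under normal growth the medians of the same genes were 0.01 in the mutant and 0.04 in the overexpressor. Both drought ratios are taken over the same ZH11 drought library, so a high or low value there enters both. The TMM factors of the drought libraries were 0.868 (ZH11), 0.755 (mutant) and 1.01 (overexpressor), and the part of scaling in the result was measured by total count scaling (tried after the values had been seen), where 21 were above ZH11 in the mutant and 23 not above it in the overexpressor. The backgrounds were then 48.1% and 69.5%. The Rubisco small subunit gene LOC_Os12g17600 had 34.3, 83.0 and 206 CPM in the drought libraries, highest in the overexpressor, and the 3 other leaf markers that fell were highest there too. Rubisco activase, the remaining leaf marker, was lowest there, with 1365, 2219 and 1013 CPM. All 5 leaf markers summed to 1714, 2554 and 1955 CPM, highest in the mutant. The part of the leaf markers in the result was not tested.

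Within each genotype, the drought ratio of NAC genes had a median of 0.61 for ZH11 (72 genes), 1.44 for the mutant (68 genes) and 0.75 for the overexpressor (67 genes). Over all genes the medians were -0.15, -0.25 and -0.04. Under total count scaling the NAC medians were 0.31, 0.84 and 0.61, and those of all genes -0.47, -0.84 and -0.18. At least 2-fold higher under drought were 34 NAC genes of ZH11 (25.0% of all genes), 39 of the mutant (26.5%) and 30 of the overexpressor (20.1%). At least 2-fold lower were 19 (29.5%), 11 (32.7%) and 11 (20.6%). The OsNAC6 drought ratio was 26.2 for ZH11 (interval 25.1–27.4), 40.8 for the mutant (39.1–42.6) and 8.22 for the overexpressor (7.87–8.59). That of SNAC1 was 40.8 (37.5–44.5), 78.8 (71.8–86.6) and 15.1 (13.9–16.4). For both genes the intervals do not meet between genotypes, but the plants behind each library were not replicated.

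**Figure D4:**
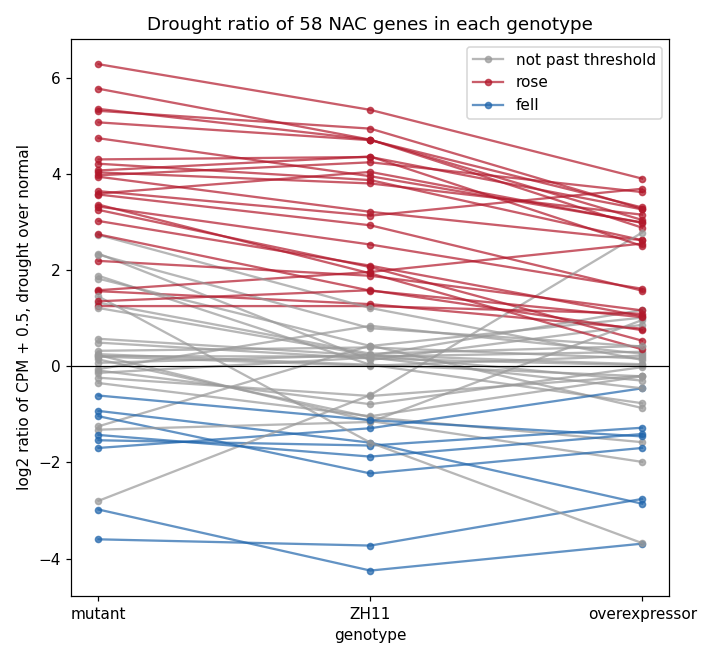
Drought ratio, as log2 of (CPM + 0.5) drought over normal, of the 58 NAC genes with enough reads in all 3 genotypes, with 1 line per gene across the mutant, ZH11 and the overexpressor. Red lines are genes that rose, blue lines genes that fell and grey lines genes not past the threshold; many red lines descend to the right, and single grey lines cross 0.

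Single NAC genes stood further from ZH11 than the family did. LOC_Os07g04560, described as ANAC042, a regulator of leaf ageing in Arabidopsis, had 0.512, 11.0 and 0.0825 CPM under normal growth and 0.511, 5.17 and 0.197 CPM under drought. Both mutant libraries were high and the other 4 low. The mutant over ZH11 was 21.5 under normal growth (10.2–54.2) and 10.1 under drought (4.23–29.3). It reached the minimum only in the mutant libraries and so did not enter the main test. With the low-count minimum dropped it passed in the mutant comparison with a log2 fold change of 3.91 (edgeR, adjusted p = 0.000294). OsNAC4 had 2.78, 16 and 5.45 CPM under normal growth and 3.92, 6.42 and 2.76 CPM under drought, and its mutant ratio under normal growth was 5.76 (4.08–8.34). LOC_Os10g42130, described as ANAC071, was 1.76 times ZH11 in the mutant under normal growth (1.23–2.55) and 3.28 times under drought (1.78–6.26), and 0.282 times in the overexpressor under normal growth (0.136–0.539).

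Other genes stood apart in the mutant drought library. LOC_Os01g70110, described as ANAC083, had 12.9, 13 and 9.74 CPM under normal growth and 13.2, 48.9 and 5.52 CPM under drought, a mutant over ZH11 ratio of 3.70 (3.05–4.50). LOC_Os01g01430 had at most 1.53 CPM elsewhere and 9.08 CPM in mutant drought, a ratio of 5.92 (3.47–10.6). Lowest against ZH11 in the mutant under drought were genes with few reads, OsSWN1 (0 against 32 reads), ONAC129 (2 against 32 reads) and ONAC023 (5 against 35 reads). Among those with at least 50 reads in both libraries together, the lowest were OMTN1 at 0.737 (0.640–0.847) and OMTN3 at 0.795 (0.620–1.01), the latter with an interval that includes equality.

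In the overexpressor drought library ONAC023 was 19.3 times ZH11 drought (13.7–27.9) and OsSWN1 11.7 times (8.13–17.4). ONAC023 had 1 read in the overexpressor normal library, so its drought ratio there, 696 (124–27525), is wide. OsSWN1 had 0 reads in mutant drought, at least 6.51-fold lower than ZH11 drought, taking 3 counts as the floor. On the low side, LOC_Os12g03050 was at 0.172 of ZH11 drought (0.119–0.242), OMTN5 at 0.236 (0.101–0.491), OsNAP at 0.253 (0.235–0.273) and LOC_Os03g21030 at 0.327 (0.312–0.342). OsNAP was also below ZH11 in the overexpressor under normal growth, at 0.481 (0.386–0.597). OMTN6 went the other way in the mutant: its drought ratio was 0.322 for ZH11 (0.261–0.395), 2.86 for the mutant (2.20–3.72) and 0.0681 for the overexpressor (0.0464–0.0968).

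**Figure D5:**
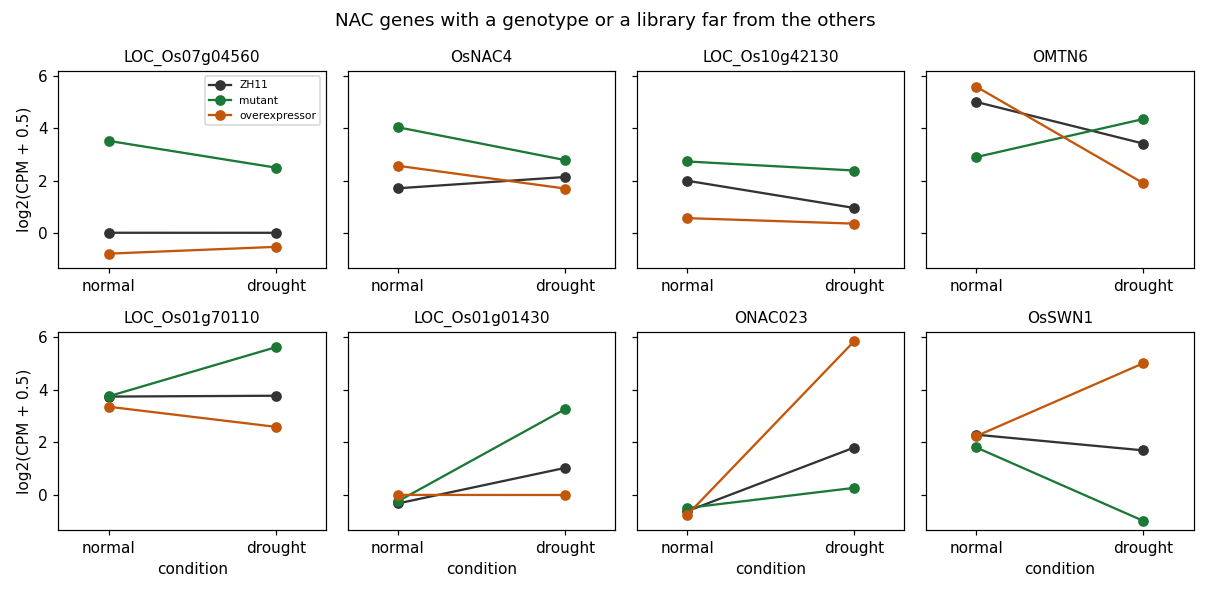
Levels of 8 NAC genes, as log2(CPM + 0.5), under normal growth and drought, with 1 line per genotype and 1 library per point. LOC_Os07g04560 is high in both mutant libraries, OMTN6 crosses between genotypes, and ONAC023 and OsSWN1 are highest in overexpressor drought.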

How the data were processed

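The deposited tables give, per the file headers, a read number and an FPKM value per gene for each of 6 RNA libraries. The authors' read numbers are expected counts that can end in 0.5, as 13.9% to 16.8% of them did in a library, and were rounded. The deposited FPKM served for levels per length and as a check. Per the submitters' processing notes, the RNA work involved TopHat2 2.0.8, Trimmomatic 0.32 and edgeR 3.6.0. Their roles, the build, the annotation, any use of strand and the handling of multiply mapped reads are not given in the sources used here, so levels of near-identical copies are uncertain.

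The 56001 lines were reduced to 55986 genes by summing repeated names. Counts were fitted by edgeR 4.0.16 (R 4.3.3) with the quasi-likelihood test, TMM scaling, filterByExpr by stress group and the model genotype plus stress. The fit covered 21409 genes with 2 residual and 4.02 prior degrees of freedom; its common dispersion was 0.0954. The SE is the absolute log2 fold change over the square root of the F statistic. Any dependence of drought on genotype sits in the residual. P-values are 2-sided and measure the spread between libraries of different genotypes, not between replicate plants. Alternatives were DESeq2 1.42.0, limma 3.58.1 on log2(FPKM + 0.5), total count and RLE scaling, no low-count minimum, no genotype term and leaving out each library. Leaving out either library of a genotype takes that genotype out of the drought estimate, so the fits without one or the other are not separate checks. The fit was tested on simulated counts with known changes.

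The NAC genes and lists were chosen with earlier results of these data known. Named were all listed genes, the 12 largest rises and 8 largest falls past the threshold with a mean over 1 CPM, and, among the 5 genes furthest each way in a ratio of libraries (50 or more reads), those that stood furthest out. LOC_Os08g06140, LOC_Os01g15640 and the genes given with genotype fold changes that missed the threshold were named after their values were seen. Of 26 symbols, 5 were in the reference gene table, all on the chromosome of their locus name. The ChIP peak lists were not used here, because NAC genes could not be placed on their coordinates; promoters were not analysed here either.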

Additional observations from a re-analysis of the deposited data

Results flagged for a closer look

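OMTN6, a miR164-target NAC gene, had drought ratios of opposite sign in the genotypes. Its log2 ratio of drought over normal was -1.59 for ZH11, 1.45 for the mutant and -3.68 for the overexpressor. The difference between genotypes rests on 1 library per point and was not tested. The spread came from both conditions, with the mutant lowest under normal growth (6.99 CPM, against 31.7 and 47.7 in the other genotypes) and highest under drought (20 CPM, against 10.2 and 3.25).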

How the results depend on the processing

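The genotype term sets each drought library against the normal library of its genotype, and without it 34 NAC genes also passed. Each genotype had 1 library per condition, so genotype was the only block in the fit. The 34 NAC genes past the drought threshold became 33 to 35 under other scalings, DESeq2, limma on FPKM or no genotype term. With no low-count minimum 51 of 117 tested NAC genes passed, beside 31.1% of all genes tested there. Leaving out each library gave 22 to 46, with 19 to 34 that rose and 2 to 12 that fell; over all tested genes the called share then ran from 22.3% to 61.3%. The lowest counts came without ZH11 drought (22) and without ZH11 normal (24). In the mutant comparison leaving out a library gave 0 to 1 calls and no low-count minimum 1 (LOC_Os07g04560). In the overexpressor comparison the corresponding values were 0 to 4 and 2 (ONAC023 and LOC_Os12g03050). With no low-count minimum 0.429% of all genes tested there were called in the mutant comparison and 0.368% in the overexpressor comparison. The main fit called 0.0140% and 0.0187%. Each left-out-library fit that gave NAC calls also called a larger share of all genes than the main fit. The highest count came without overexpressor normal, where that genotype had 1 library left. Of 25 named genes past the drought threshold, 25 kept their direction in the settings that tested them and 15 kept their call in all 12; the 10 others were not called without ZH11 normal. OMTN5 had too few reads to be tested without ZH11 drought. OsSWN1, at -0.01, changed sign under RLE scaling (0.10) and no genotype term (1.59) and ran from -1.68 to 1.28 over left-out libraries; ONAC106 ran from -1.04 to 0.17. The cause was not tested.

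Counts of ratios of at least 2-fold depended on the read minimum. They stand here without a share of all genes at each setting, so they cannot be set beside a background. With 50 reads, 10 NAC genes were lower under drought in ZH11. The mutant over ZH11 then had 2 lower under normal growth and 7 higher and 0 lower under drought. The overexpressor over ZH11 had 0 higher and 2 lower under normal growth, and 2 higher under drought. On the deposited FPKM, 8 were higher in the mutant under drought and 1 in the overexpressor under normal growth. Under total count scaling 8 were higher and 14 lower in the overexpressor under drought, and on FPKM 14 were lower (5 and 21 with TMM). The planned placement of peaks and promoter motifs was not run.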

Other observations

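Among the 76 NAC genes without a test, 17 reached at least 1 CPM in some library. LOC_Os12g05990, described as ANAC090, was read under normal growth only, at 2.41, 2.04 and 0.66 CPM in ZH11, the mutant and the overexpressor, with 0 reads in each drought library. LOC_Os02g06950 had 1.61, 1.49 and 0.743 CPM under normal growth and 0, 0.559 and 0 CPM under drought. The reverse was seen for LOC_Os03g59730, described as ANAC025, with no read under normal growth and 0.852, 1.26 and 1.18 CPM under drought. LOC_Os02g42970, described as ANAC007, had at most 0.0678 CPM under normal growth and 1.53, 0.838 and 1.38 CPM under drought. LOC_Os04g42940, described as ANAC064, had at most 0.0825 CPM under normal growth and 1.11, 0.559 and 2.07 CPM under drought. These genes were picked after their values were seen.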
